A study of Homo sapiens with 41 samples.

Results

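C/D box small nucleolar RNA (snoRNA) loci were examined in T98G cells, a human glioblastoma cell line that stops dividing without serum and re-enters the cell cycle when serum is returned. The loci were chosen by name and by level: genes whose symbol begins with SNORD and whose mean normalised count over all 41 libraries was at least 20. This gave 99 loci with 96 symbols, out of 314 SNORD genes and 58721 genes counted. Cells were held for 72 h in serum-free medium, stimulated with medium containing 20% fetal calf serum, and harvested every 10 min from 0 min (unstimulated) to 400 min. All libraries came from the same treated line and differed only in the time after serum. Total RNA depleted of ribosomal RNA was sequenced as strand-specific read pairs without poly(A) selection, with 1 library per time point. There were therefore no replicates, and the spread of the libraries about a smooth curve of time stood in for replicate error, so a p-value here measures that spread only.

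Total counts per library ran from 18206982 at 20 min to 64948114 at 70 min, with a median of 41773419. A normalised count is the deposited count divided by the library's size factor, which ran from 0.447 to 1.60. Among the glial and mesenchymal markers, VIM lay between 34424 and 62027 normalised counts and CD44 between 13751 and 32466, while the medians of GFAP, SOX2 and S100B were 1.48, 0 and 1.06. OLIG2 did not exceed 65.0, NES 61.7, PTPRC 12.1, PECAM1 21.0 and EPCAM 27.5 in any library. VIM, CD44 and OLIG2, 3 of the 7 markers tested, were higher at 400 min, and their part in the results was not tested. These are bulk values, in which fewer cells with an RNA and less of that RNA per cell cannot be told apart.

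C/D box snoRNAs are short RNAs that carry a box C near the 5′ end and a box D near the 3′ end, and they work in a particle with fibrillarin (FBL), NOP56, NOP58 and SNU13. Most of them guide 2′-O-methylation: a stretch just before box D, or before an internal copy of it, pairs with ribosomal RNA, and the nucleotide opposite the fifth base before the box is methylated. A few, such as U3 (SNORD3), U8 (SNORD118), U13 (SNORD13), U14 (SNORD14) and U22 (SNORD22), act in cleavage, folding or other modification of the ribosomal precursor. In human cells most are not transcribed on their own. They are cut out of introns of host genes, many of which encode ribosomal proteins, translation factors or nucleolar proteins, while others are long non-coding RNAs (lncRNAs) of the small nucleolar RNA host gene (SNHG) group. A locus here is an annotated interval, and its count includes any read pair that touches it by 1 base, so unspliced host RNA and exons of the host add to it as well as the mature snoRNA.

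The loci within SNHG1, a lncRNA host with 7 of them, and within SNHG29, with 3, are shown first. Each set shares a host transcript, and the fitted changes of its loci varied, though differences between them were not tested. The SNHG1 and SNHG29 loci are followed by SNORD43 in RPL3, and by SNORD14A in RPS13 and SNORD14E in HSPA8, which carry the same antisense stretch in different hosts. SNORD118 and SNORD12C come last, and were among the 5 loci past the threshold at 30 min, the first time tested. Sequences are from GRCh38, written 5′ to 3′ on the strand of the locus, and capitals mark a box C match (NTGATGA within the first 20 bases) and a box D match (CTGA within the last 20 bases). SNORD25 is at chr11:62855564-62855632 on the minus strand, and the other SNHG1 loci follow it downstream, as far as chr11:62852910-62853035. The SNHG29 loci lie on the plus strand between chr17:16439505-16439576 (SNORD49B) and chr17:16441226-16441298 (SNORD65). SNORD43 is at chr22:39319050-39319113, SNORD14A at chr11:17074654-17074744, SNORD14E at chr11:123058077-123058161 and SNORD118 at chr17:8173454-8173587, all on the minus strand. SNORD12C is at chr20:49278940-49279028 on the plus strand.
SNORD25: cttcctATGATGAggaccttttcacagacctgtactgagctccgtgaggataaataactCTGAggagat
SNORD26: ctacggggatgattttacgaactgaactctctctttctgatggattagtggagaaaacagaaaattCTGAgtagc
SNORD27: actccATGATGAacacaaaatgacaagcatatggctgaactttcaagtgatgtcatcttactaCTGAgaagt
SNORD28: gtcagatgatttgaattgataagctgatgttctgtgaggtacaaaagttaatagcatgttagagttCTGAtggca
SNORD22 (ENSG00000278527): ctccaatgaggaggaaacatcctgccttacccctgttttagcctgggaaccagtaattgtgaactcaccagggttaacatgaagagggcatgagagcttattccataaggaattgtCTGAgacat
SNORD30: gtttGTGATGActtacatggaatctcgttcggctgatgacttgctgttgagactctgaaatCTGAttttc
SNORD22 (ENSG00000277194): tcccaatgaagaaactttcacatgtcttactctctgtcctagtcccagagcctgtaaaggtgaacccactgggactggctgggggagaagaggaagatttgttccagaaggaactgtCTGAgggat
SNORD49B: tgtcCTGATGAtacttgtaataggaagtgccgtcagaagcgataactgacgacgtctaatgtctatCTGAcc
SNORD49A: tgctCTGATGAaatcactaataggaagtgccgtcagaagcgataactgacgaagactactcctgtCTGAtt
SNORD65: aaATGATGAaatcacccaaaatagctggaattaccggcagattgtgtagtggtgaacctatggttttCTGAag
SNORD43: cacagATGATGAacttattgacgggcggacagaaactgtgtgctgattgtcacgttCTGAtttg
SNORD14A: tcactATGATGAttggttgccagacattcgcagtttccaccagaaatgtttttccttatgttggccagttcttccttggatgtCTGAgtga
SNORD14E: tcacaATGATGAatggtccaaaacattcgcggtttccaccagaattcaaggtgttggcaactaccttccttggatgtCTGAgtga
SNORD118: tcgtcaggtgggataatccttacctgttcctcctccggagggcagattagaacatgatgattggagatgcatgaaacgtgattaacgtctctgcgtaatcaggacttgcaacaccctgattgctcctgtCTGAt
SNORD12C: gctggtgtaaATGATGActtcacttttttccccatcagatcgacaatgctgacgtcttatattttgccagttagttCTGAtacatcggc

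Box C matched at the start of 57 of the 99 loci (57.6%) and box D at the end of 93 (93.9%), and 56 had both. Windows of the same length just upstream of the loci held box C in 2.02% and box D in 8.08%, and windows just downstream held them in 0% and 11.1%. The 93 H/ACA box snoRNA loci, the other large snoRNA class, had box C in 0 cases and box D in 10 (10.8%). The search used these letters on the strand of the locus only, and a locus without a match may carry a variant box. Among the loci shown, SNORD26, SNORD28, SNORD118 and both SNORD22 loci had a box D match without a box C match. A stretch of at least 10 bases perfectly antisense to mature ribosomal RNA, covering the fifth base before any CTGA, was found in 58 of the 99 loci (58.6%), against 2.02% of the upstream and 2.02% of the downstream windows. Of these 58 loci, 26 were antisense to 18S, 31 to 28S and 1 to 5.8S rRNA, and the matches ran from 10 to 20 bases with a median of 12. SNORD27, for example, holds gacaagcatatg, which is antisense to 18S rRNA around position 27, and SNORD25 holds tcacagacctgt, antisense to 18S around position 1490. SNORD30 holds ggaatctcgttc opposite 28S position 3810, and SNORD26 holds tgaactctctctt opposite 28S position 398. Among the 215 SNORD genes below the limit on the mean, 35 (16.3%) had such a stretch. A match is a description of the letters and does not show that a position was methylated in these cells.

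Of the 90 loci with a host, 87 lay in an intron of the host's canonical transcript, and SNORD5, SNORD6 and SNORD58B lay outside it. The distance from the 3′ end of the locus to the next exon had a median of 100 bases, and 54 of the 87 (62.1%) lay 60 to 130 bases from it. H/ACA loci lay a median of 356.5 bases from the next exon, and 21 of 78 lay in the same range. An exon of another annotated gene on the same strand touched 73 of the 99 loci, while 26 touched none, so for the former a read cannot be assigned to the snoRNA or to the other transcript.

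With time after serum more of the C/D box loci lay above their starting level, up to 66 of 99 past the threshold at 400 min, while 32 were not past it and 1, a U3 locus, was lower. At 30 min 1 of the 99 was higher than at 0 min (edgeR quasi-likelihood test on a spline of time, adjusted p below 0.01), where 1.71% of all 21629 genes tested were higher, and 4 were lower, where 0.342% of all genes were. At 60 min 2 were higher and 3 lower, against 5.15% and 1.24% of all genes. By 120 min 26 loci were higher (13.6% of all genes) and 2 lower (6.76%). Higher loci reached 50 after 240 min (21.6% of all genes), with 1 lower (18.5%), and 66 after 400 min (24.2%), again with 1 lower (22.4%). The counts before 400 min depend on the scaling and the curve: with spike-in size factors 9 loci in either direction were past the threshold after 120 min and 30 after 240 min, and with 4 degrees of freedom 52 and 85, in place of 28 and 51. The shares of all genes given here belong to the main fit only. Over the 99 loci the median log2 change was -0.18 after 30 min and 0.01 after 60 min, then 0.44 after 120 min, 0.72 after 240 min and 0.93 after 400 min. Over all genes it was 0.05 after 30 min and at most 0.01 in size later. Among the 26 loci that touch no exon of another gene 14 were higher and 1 lower at 400 min, with a median of 0.77. The loci were selected on their mean over the whole course, which includes the late libraries, and the change between times was not the criterion. The selection is still not neutral for low loci. A locus that began below the limit on the mean could enter only if its later libraries were higher. SNORD88B, SNORD39, SNORD1A and SNORD36B were among such loci, with each of their first 3 libraries below the limit. How far the count of higher loci rests on this was not tested. Leaving out the 0 min library leaves the starting level to be extrapolated from 10 min onwards, and the calls then fell to 0 for 30 and 60 min, 2 for 120 and 240 min and 5 for 400 min, while the median change at 400 min stayed at 0.90. A comparison added after the data were seen, of the 6 libraries from 350 to 400 min with the 3 from 10 to 30 min, which also omits 0 min, placed 74 loci higher and 8 lower. The share of all genes in that comparison is not given here, so these counts stand without a background.

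**Figure D1:**
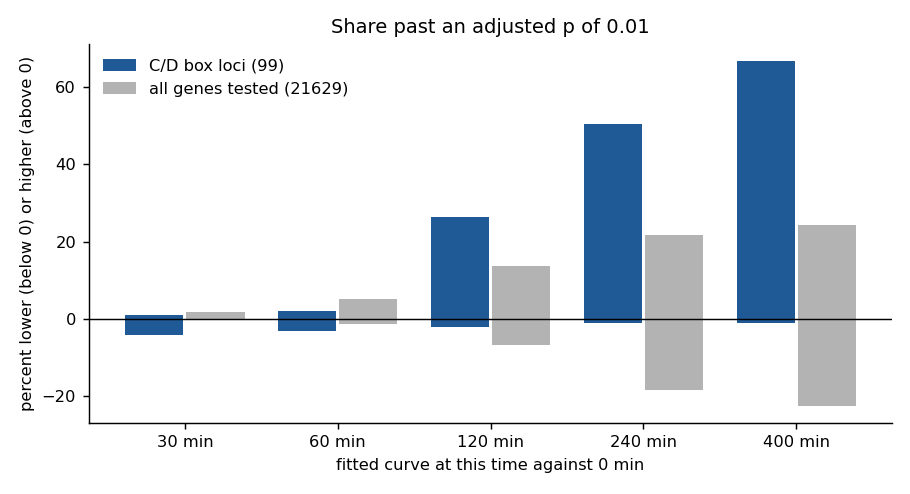
Share of the 99 C/D box loci (blue) and of all 21629 genes tested (grey) that were higher (above 0) or lower (below 0) than at 0 min on the fitted curve, in percent, at 30, 60, 120, 240 and 400 min. The blue bars above 0 grow from 1 to 66 of 99 loci, whereas the grey bars grow on both sides.

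The values themselves show the same course without a curve. For 74 of the 99 loci every library from 350 to 400 min lay above every library from 0 to 20 min (6 libraries against 3), a pattern seen in 28.4% of all genes. For 6 loci, all of them U3, every late library lay below every early one, as in 27.7% of all genes, and the remaining 19 overlapped. The lowest value of a locus fell in the first 50 min for 80 of the 99, against 37.4% of all genes, and the highest fell at 350 min or later for 58 of the 99, against 22.5%. Neighbouring time points were correlated (by a Ljung–Box test of lag 1 and a threshold of 0.01 on the adjusted p) in 83 of the 99, against 60.9% of all genes, with a median lag-1 correlation of 0.70 against 0.54.

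SNORD28, in SNHG1, had the largest rise. Its normalised count was lowest at 40 min (32.5), had a median of 124 and was highest at 400 min (240). It started at 44.6, stayed under 50 until 80 min and then climbed, so that the late libraries (163 to 240) were well clear of the early ones (42.6 to 44.6). The curve at 400 min lay 2.27 ± 0.18 (SE, log2) above 0 min, a 4.84-fold difference (edgeR adjusted p = 4.9e-15). SNORD65 in SNHG29 ranged from 31.3 at 30 min to 181 at 400 min with a median of 106, and rose by 2.06 ± 0.18 (adjusted p = 1.1e-13). SNORD43 in RPL3 ranged from 20.7 at 0 min to 88.5 at 390 min with a median of 69.0, and rose by 1.96 ± 0.24 (adjusted p = 2.5e-09). These 3 loci had no overlap between the early and the late libraries. SNORD1A in SNHG16 rose by 2.07 ± 0.46 (adjusted p = 0.00015), but from low values, 6.22 at 0 min and a median of 25.6. SNORD14E in HSPA8, the gene of a constitutive heat-shock protein, ranged from 22.3 at 40 min to 124 at 400 min with a median of 87.1, and rose by 1.92 ± 0.27 (adjusted p = 5.2e-08). Without the 0 min library SNORD28 remained past the threshold, with 2.25 at 400 min (adjusted p = 0.0064), while SNORD65 gave 2.11 (adjusted p = 0.026) and SNORD43 1.75 (adjusted p = 0.098).

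**Figure D2:**
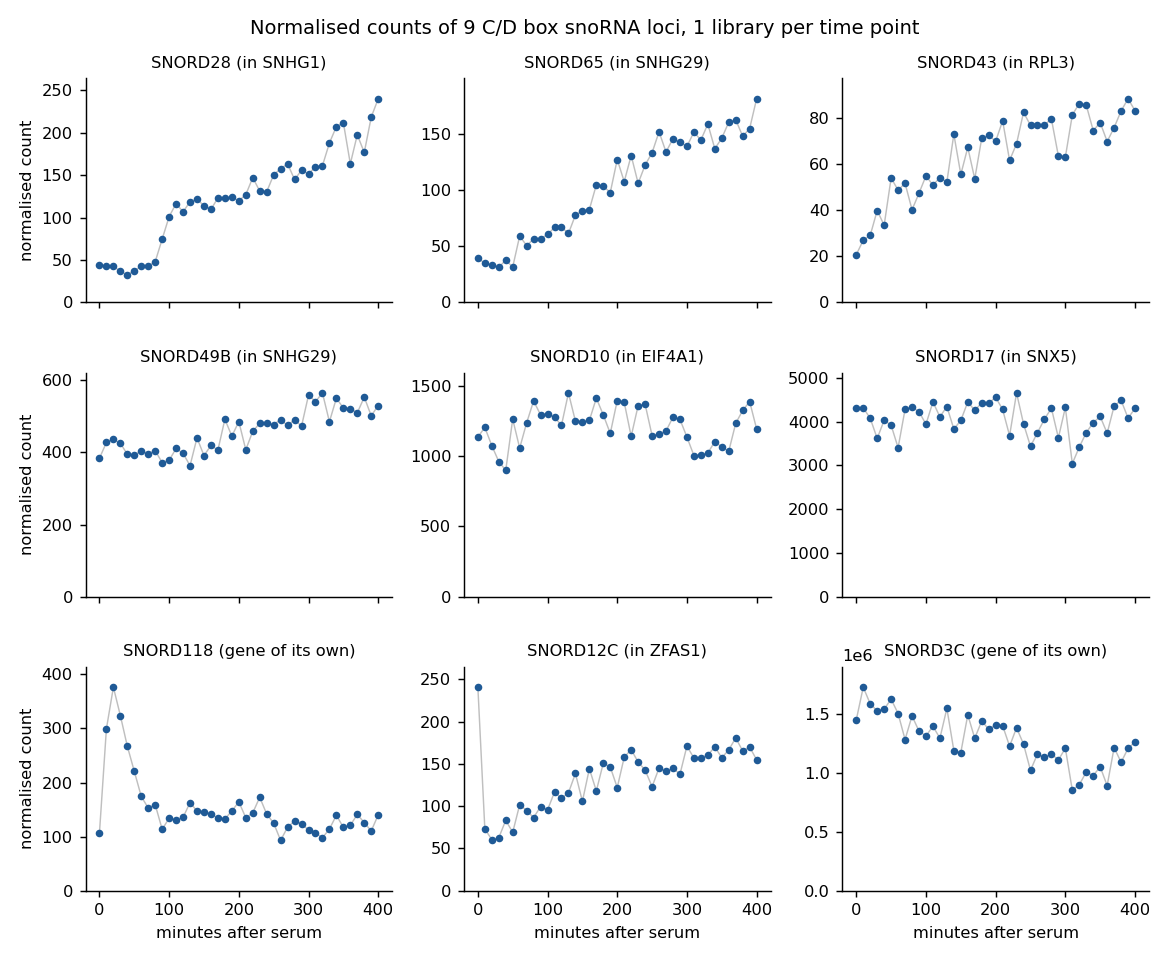
Normalised counts (y, linear, from 0) against minutes after serum (x) for 9 C/D box loci, 1 point per library, with the host named in each title. SNORD28, SNORD65 and SNORD43 climb several-fold, SNORD49B less so, SNORD10 and SNORD17 stay within a narrow band, SNORD118 peaks at 376 at 20 min, SNORD12C is highest at 0 min (241), and SNORD3C, a U3 locus, is lower late than early.

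Few loci had moved by 30 min. SNORD118 encodes U8, a snoRNA needed to process the precursor of 5.8S and 28S rRNA, and it is transcribed from a gene of its own. Its normalised count was 107 in the 0 min library and 299, 376, 324 and 267 in the next 4, and by 70 min it was back to 153. Every library from 10 to 60 min was higher than the 0 min library, and the curve at 30 min was 1.59 ± 0.20 above 0 min (edgeR adjusted p = 1.1e-07). At 400 min it was 0.11 ± 0.19 (adjusted p = 0.63), a direction that turns to -1.18 with 4 degrees of freedom and to -1.39 for the 350 to 400 min libraries against those from 10 to 30 min. TMEM107, the gene whose exons overlap SNORD118 on the same strand, was 0.89 ± 0.13 higher at 30 min (adjusted p = 3.1e-06), and its change at 400 min was -0.77 ± 0.12 (adjusted p = 2.0e-07). The SNORD118 count was 0.213 to 0.451 of the TMEM107 count, which can hold the same reads. The ratio of SNORD118 to TMEM107 was 0.75 ± 0.15 higher at 30 min (limma, adjusted p = 0.00092) and 0.94 ± 0.13 higher at 400 min (adjusted p = 5.9e-07), but both values rest on the 0 min library, whose count ratio of 0.213 is the lowest of the 41. The ratio was 0.331 to 0.361 from 10 to 30 min and 0.367 to 0.451 from 350 to 400 min. The differences were 0.24 ± 0.38 (limma adjusted p = 0.92) and 0.49 ± 0.34 (adjusted p = 0.56) when that library was left out, and -0.03 ± 0.05 and 0.45 ± 0.13 with 4 degrees of freedom.

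SNORD12C, in ZFAS1, was the locus with the largest early difference in the other direction. Its value was 241 at 0 min, then 73.2, 60.5 and 62.6 at 10, 20 and 30 min, and it climbed again to between 155 and 181 in the late libraries. The highest of its 41 values is the single library at 0 min. The curve was -2.01 ± 0.19 at 30 min (edgeR adjusted p = 1.9e-11) and -0.42 ± 0.15 at 400 min (adjusted p = 0.015), whereas the 350 to 400 min libraries were 1.32 higher than those from 10 to 30 min (edgeR adjusted p = 2.0e-08). Its ZFAS1 neighbour SNORD12B fell from 143 at 0 min to 83.1 at 30 min (-0.91 ± 0.20, adjusted p = 0.0036), and then reached 236 at 400 min. SNORD12, the other ZFAS1 locus, went from 109 to 95.0 (-0.46 at 30 min). SNORD104 in SNHG25 fell from 78.8 to 44.2 (-0.99 ± 0.22, adjusted p = 0.0029) and SNORD99 in SNHG12 from 37.3 to 15.1 (-1.56 ± 0.36, adjusted p = 0.0045). All of the loci that were lower at 30 min thus had lncRNA hosts. Of those hosts, SNHG12 and SNHG25 were also lower at 30 min, by -0.95 and -0.94, while ZFAS1 was at -0.07. SNORD43 (1.14 ± 0.25) and SNORD20 in NCL, the nucleolin gene (1.40 ± 0.33), were the intronic loci past the threshold and higher at 60 min (adjusted p = 0.0011 and 0.0028). A stiffer curve with 4 degrees of freedom placed 36 loci higher and 2 lower at 30 min, with a median change of 0.16, so the direction at this time depends on how closely the curve can follow the first points. The share of all genes past the threshold on that curve is not given here, so the 36 cannot be set against a background.

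The hosts fell into 3 kinds: ribosomal protein genes with 39 loci, other protein-coding genes with 28, and lncRNAs with 23. At 400 min 65 of these 90 loci were higher and 0 lower, as were 34 and 0 of their 43 hosts, each host counted once (24.2% of all genes were higher). Locus and host were both higher for 59 loci, only the locus for 6, only the host for 15, and neither for 10. Without the 0 min library 14 of the 43 hosts were higher, and with size factors from the spike-in RNAs 14 were. Across the 90 loci the log2 change of the locus and that of its host had a Pearson r of 0.51 and a Spearman rho of 0.50. The points share libraries, and loci of the same host share that host's value. A read pair that touches both a locus and an exon of its host was counted for both, so the values of locus and host are not independent. Of the 90 loci, 21 touch no exon of another gene, the host included. How far the correlation, the joint calls and the ratios below rest on shared reads was not tested. The log2 ratio of locus to host was fitted for every gene nested in a longer gene on its strand. At 400 min it was higher than at 0 min for 18 of the 90 loci, against 6.38% of the 2462 nested pairs, and lower for 12, against 5.93%. Without the 0 min library 3 were higher and 1 lower.

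**Figure D3:**
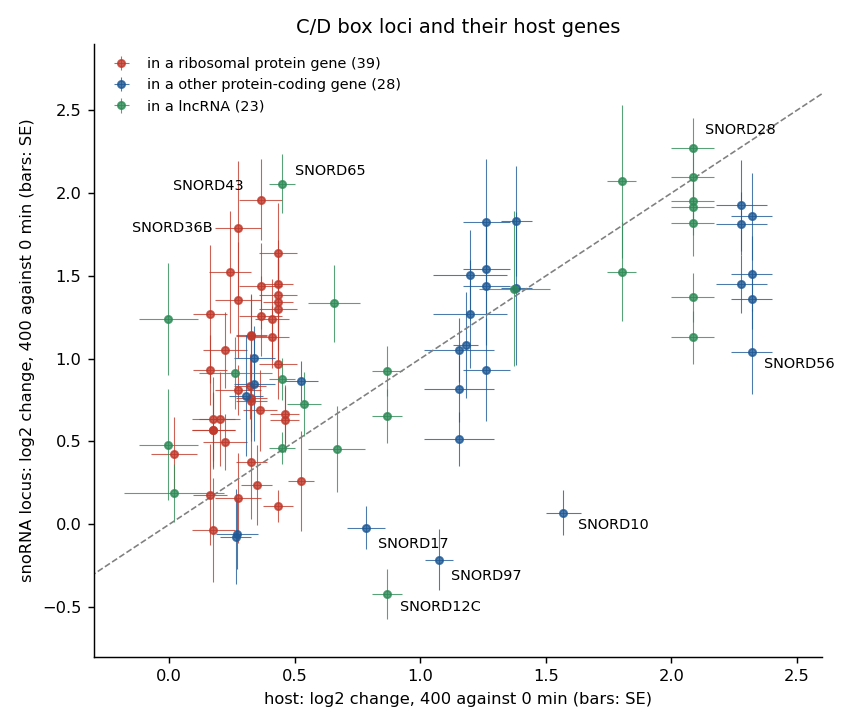
Log2 change at 400 min against 0 min of the 90 hosted C/D box loci (y) and of their hosts (x), with SE bars, coloured by kind of host. The dashed line marks equal change. Loci in ribosomal protein genes (red) mostly sit above the line at host changes of at most 0.52, and loci in other protein-coding genes (blue) mostly lie below it.

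For 14 of the 39 loci in ribosomal protein genes the rise was larger than that of the transcript that contains them. Of the 39, 25 were higher at 400 min and 0 lower (24.2% and 22.4% of all genes), with a median log2 change of 0.83. The 17 hosts had a median of 0.33, with RPL5 the highest at 0.52, and 11 of them were higher. The ratio of locus to host was higher for those 14, lower for 1, and above 0 for 33 of 39, with a median of 0.52. Of all nested pairs 6.38% were higher and 5.93% lower. SNORD43 had the largest such difference, 1.58 ± 0.21 (limma adjusted p = 1.3e-07), with RPL3 at 0.36. SNORD36B in RPL7A, with values from 9.01 at 10 min to 40.2 at 350 min and a median of 26.5, had a difference of 1.52 ± 0.37 (adjusted p = 0.0019) and a host change of 0.27. SNORD72 in RPL37 ranged from 13.0 at 30 min to 56.8 at 400 min with a median of 39.8, and its difference was 1.32 ± 0.34 (adjusted p = 0.0032). That value turns to -0.79 without the 0 min library. SNORD4B in RPL23A, just above the limit with a mean of 24.7, ranged from 7.11 to 39.9 with a median of 24.7, and rose by 1.27 ± 0.41 (adjusted p = 0.0082).

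Within some ribosomal protein genes all loci passed the threshold and within others only some or none did, and differences between loci of the same host were not tested. All 4 loci of RPL4 were higher, from 0.97 (SNORD16) to 1.64 (SNORD18A), and all 3 of RPL3, from 1.26 (SNORD83A) to 1.96 (SNORD43). The 4 loci of RPL13A were not past the threshold, from -0.03 (SNORD33) to 0.63 (SNORD34), with SNORD32A and SNORD35A both at 0.57. In RPL17-C18orf32, a readthrough annotation that covers RPL17, SNORD58A rose by 1.34 ± 0.29 and SNORD58C by 1.45 ± 0.26. SNORD58B, the most abundant locus in a ribosomal protein gene, was at 0.11 ± 0.10 (adjusted p = 0.33) with values between 472 and 599, and its ratio to the host was -0.32 ± 0.08 (limma adjusted p = 0.0035).

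In other ribosomal protein genes, too, loci past the threshold lay beside loci that were not. Of the 4 loci of RPL7A, SNORD36B, SNORD24 (1.35 ± 0.35) and SNORD36A (0.81 ± 0.15) were higher and SNORD36C was at 0.16 ± 0.27, with late libraries (30.5 to 51.9) that overlapped the early ones (38.1 to 48.4). In RPL23A SNORD4A (0.93 ± 0.21) and SNORD4B were higher, and SNORD42B was at 0.18 ± 0.31. Both loci of RPS12 (0.41) were higher, SNORD100 by 1.24 ± 0.25 and SNORD101 by 1.13 ± 0.19. In RPS3 (0.22) SNORD15A rose by 1.05 ± 0.23, from 38.4 at 0 min to 75.5 at 400 min, and the more abundant SNORD15B was at 0.50 ± 0.17 (adjusted p = 0.011), although its late libraries (336 to 463) all lay above its early ones (262 to 283). RPS3 thus held a locus past the threshold and one just short of it. The only locus of RPS3A, SNORD73A, rose by 0.83 ± 0.20. The single loci of RPL13 (SNORD68, 0.64), RPL21 (SNORD102, 0.69), RPL5 (SNORD21, 0.26) and RPS20 (SNORD54, 0.24) were not past the threshold. Ribosomal protein genes have many processed pseudogenes, and reads were counted at up to 20 places, so the host values may be shared with copies elsewhere.

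Most loci in other protein-coding genes rose, as did all of their hosts. Of the 28, 21 were higher at 400 min and 0 lower (24.2% and 22.4% of all genes), with a median log2 change of 1.07. All 15 hosts were higher, from 0.26 (DDX39B, an RNA helicase of mRNA export) to 2.32 (NOP56), with a median of 1.15. The ratio of locus to host was lower for 8 loci and higher for 2 (5.93% and 6.38% of all nested pairs), with a median of -0.34. The 2 were SNORD96A in RACK1 (0.65 ± 0.14, limma adjusted p = 0.00077) and SNORD2 in EIF4A2 (0.34 ± 0.10, adjusted p = 0.0090), which ranged from 245 at 30 min to 535 at 370 min with a median of 379. NOP56, which encodes a core protein of the C/D particle itself, went from 3416 to 17011 normalised counts. Its 4 loci all rose, from 1.04 (SNORD56) to 1.86 (SNORD57). SNORD56 ranged from 8.13 at 40 min to 55.7 at 390 min with a median of 43.3, and its ratio to NOP56 was -1.29 ± 0.23 (limma adjusted p = 3.0e-05). The 3 loci of HSPA8 (2.28) rose by 1.45 to 1.92, the 4 of GNL3, the nucleostemin gene (1.26), by 0.93 to 1.83, and the 2 of NCL (1.38) by 1.42 and 1.83. Within these hosts the ratios differed in size. SNORD14C was the only HSPA8 locus whose ratio was past the threshold (-0.82 ± 0.17, adjusted p = 0.00046). Of the NOP56 loci SNORD86 (-0.96 ± 0.16) and SNORD110 (-0.86 ± 0.20) also had lower ratios, and SNORD57 did not pass (-0.43 ± 0.24). The loci of TAF1D, a subunit of the RNA polymerase I selectivity factor (1.20), rose as well, SNORD5 from 64.3 at 0 min to 204 at 400 min and SNORD6 by 1.27 ± 0.33. In RABGGTB (1.15), a subunit of a prenyl transferase, SNORD45C rose by 1.05 ± 0.19, SNORD45B by 0.82 ± 0.20 and SNORD45A by 0.52 ± 0.16, and the ratio of SNORD45A was lower (-0.64 ± 0.15, limma adjusted p = 0.0016). SNORD63B in the mitochondrial chaperone gene HSPA9 (1.18) rose by 1.08 ± 0.32. Not past the threshold were SNORD59A in ATP5F1B (0.78 ± 0.36), SNORD95 in RACK1 (0.85 ± 0.35), SNORD84 in DDX39B (-0.07 ± 0.29) and SNORD94 in PTCD3 (-0.06 ± 0.21), with hosts at 0.30, 0.34, 0.26 and 0.27 in the same order.

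Among these loci, 3 long and abundant ones showed no change past the threshold while their hosts rose. SNORD10, in the translation initiation factor gene EIF4A1, ranged from 899 at 40 min to 1450 at 130 min with a median of 1233. Its late libraries (1035 to 1388) covered the same range as its early ones (1075 to 1204). Its change at 400 min was 0.07 ± 0.14 (edgeR adjusted p = 0.69), EIF4A1 was at 1.57 ± 0.07, and the ratio was -1.50 ± 0.15 (limma adjusted p = 3.0e-10), which was -1.66 without the 0 min library (adjusted p = 0.0058). SNORD97, in the translation factor gene EIF4G2 (1.07), ranged from 520 at 30 min to 881 at 160 min with a median of 679. It was at -0.21 ± 0.18 (adjusted p = 0.33), with a ratio of -1.29 ± 0.20 (limma adjusted p = 5.3e-06). SNORD17, in the sorting nexin gene SNX5 (0.78), ranged from 3040 at 310 min to 4654 at 230 min with a median of 4108, was at -0.02 ± 0.13, and had a ratio of -0.80 ± 0.17 (adjusted p = 0.00045). The early and the late libraries overlapped for each of the 3.

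**Figure D4:**
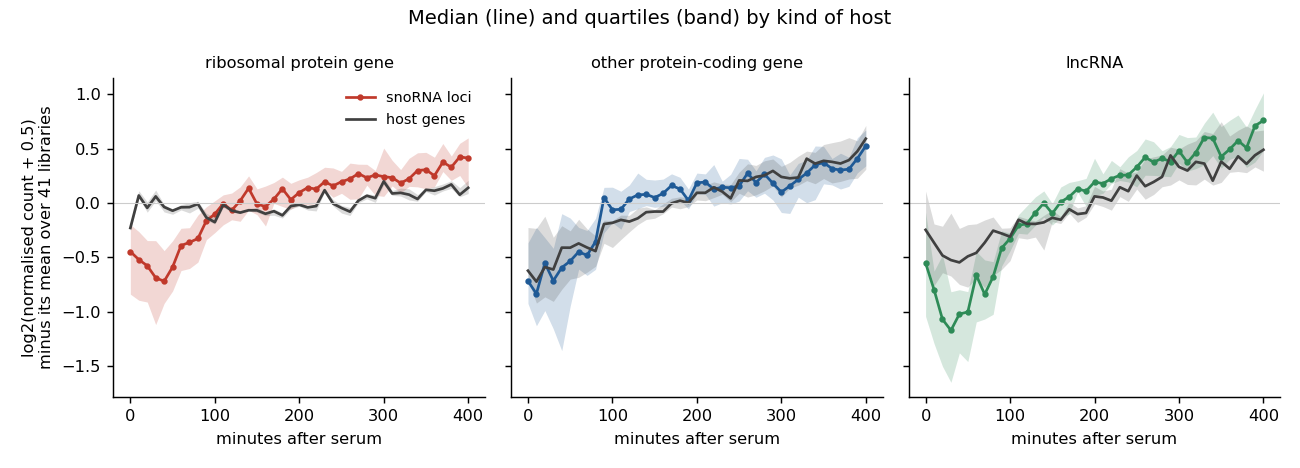
Log2(normalised count + 0.5) of each C/D box locus (coloured) and each host (grey) minus its own mean over the 41 libraries, as the median (line) and quartiles (band) at each time, by kind of host. The medians of loci in ribosomal protein genes and in lncRNAs are lowest at 40 min (-0.72) and 30 min (-1.17), while the median of ribosomal protein hosts stays within a narrow band.

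Loci in lncRNA hosts ranged in log2 change from -0.42 to 2.27. Of the 23, 19 were higher at 400 min and 0 lower (24.2% and 22.4% of all genes), with a median log2 change of 1.24. Of the 11 hosts 8 were higher, with a median of 0.66. The ratio of locus to host was higher for 2 and lower for 3 (6.38% and 5.93% of all nested pairs), and had a median of 0.01. SNHG1, first described as the host gene of U22, rose by 2.09 ± 0.09 (edgeR adjusted p = 5.7e-25), from 1624 normalised counts at 0 min to 7045 at 400 min. All 7 of its C/D loci rose. The larger changes were 2.27 for SNORD28, 2.09 ± 0.19 and 1.92 ± 0.17 for the SNORD22 loci with identifiers ENSG00000278527 and ENSG00000277194, 1.95 ± 0.16 for SNORD27 and 1.82 ± 0.20 for SNORD30. SNORD26 (1.37 ± 0.15) and SNORD25 (1.13 ± 0.16) rose less. SNORD25 ranged from 107 at 30 min to 331 at 400 min with a median of 197, and SNORD26 from 102 at 50 min to 411 at 390 min with a median of 229. Their ratios to SNHG1 were -0.95 ± 0.15 (limma adjusted p = 4.5e-06) and -0.72 ± 0.13 (adjusted p = 2.2e-05), and the other 5 ratios, from -0.25 to 0.17, were not past the threshold. SNORD25 and SNORD26 are the first loci in the order of transcription. SNORD27 ranged from 38.1 to 286 with a median of 155, SNORD30 from 32.5 to 244 with 122, and the SNORD22 loci from 32.5 to 315 with 165 and from 64.8 to 416 with 240, in the order of identifiers above.

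The 3 loci of SNHG29 lay within 2 kilobases, and their fitted changes varied, though differences between them were not tested. SNHG29 rose by 0.45 ± 0.05. SNORD49B ranged from 363 at 130 min to 565 at 320 min with a median of 459 and rose by 0.46 ± 0.10 (edgeR adjusted p = 7.7e-05), so its ratio to the host was 0.01 ± 0.09. SNORD49A rose by 0.88 ± 0.13, from 194 at 0 min to 384 at 400 min, with a ratio of 0.42 ± 0.12 (limma adjusted p = 0.0087). SNORD65 had a ratio of 1.60 ± 0.16 (adjusted p = 4.6e-11), which held without the 0 min library (2.02, adjusted p = 0.00074). In the sequences above, SNORD49A and SNORD49B share a stretch of 35 bases, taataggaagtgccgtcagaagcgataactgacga, and differ on both sides of it. SNORD65 does not hold this stretch. Whether any reads were counted for both SNORD49 loci was not tested. In ZFAS1 (0.87) the ratio of SNORD12C was -1.21 ± 0.18 (limma adjusted p = 1.3e-06), but it rests on the 0 min library, without which it was 0.0045. SNORD12 (0.92) and SNORD12B (0.65) rose with the host. The 2 loci of SNHG16 (1.80) rose by 1.52 and 2.07, and SNORD39, annotated inside MIR31HG (1.37), rose by 1.42 ± 0.47 (adjusted p = 0.0086). SNORD50B in SNHG5 (0.54) rose by 0.73 ± 0.20, SNORD60 in SNHG19 (0.26 ± 0.15, not past the threshold) by 0.91 ± 0.22 and SNORD87 in SNHG6 (0.66) by 1.33 ± 0.23. SNORD60 was at 64.3 at 0 min, had its lowest value, 21.0, at 50 min and its highest, 128, at 400 min, and its early and late libraries did not overlap. SNORD99 (0.45 ± 0.26) and SNORD104 (0.19 ± 0.17), which were lower at 30 min, were not past the threshold at 400 min. In an unnamed lncRNA (ENSG00000285565), whose own adjusted p was 0.98, SNORD52 rose by 1.24 ± 0.34 and SNORD48 was at 0.48 ± 0.34. SNORD88B, just above the limit with a mean of 22.1, has no longer gene around it and rose by 1.72 ± 0.52 (adjusted p = 0.0043), from values of 2.24 to 16.9 early to 22.6 to 38.6 late.

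Several loci with the same antisense stretch sit in different places, which allows the same snoRNA family to be followed in different hosts. There were 43 ribosomal positions matched, 10 of them by more than 1 locus, and 9 of those 10 by loci of a single host. The exception was 18S position 462, matched by SNORD14A and SNORD14B in RPS13 and by SNORD14C and SNORD14E in HSPA8. The RPS13 copies rose by 0.67 ± 0.18 and 0.63 ± 0.19, with RPS13 at 0.46, and the HSPA8 copies by 1.45 ± 0.17 and 1.92 ± 0.27, with HSPA8 at 2.28. SNORD14A ranged from 40.3 to 108 with a median of 74.1 and SNORD14C from 63.7 to 240 with a median of 180. The difference between the copies was not tested. Loci antisense to 18S numbered 23 higher of 26, with a median of 1.25, those antisense to 28S 20 of 31, with a median of 1.05, and those without a match 22 of 41, with a median of 0.65, where 24.2% of all genes were higher. The last set holds the U3 loci, and the sets differ in level and host.

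Of the 8 loci with genes of their own, U3, U8 and U13, 0 were higher at 400 min and 1 was lower, where 24.2% and 22.4% of all genes were. U3 is the most abundant C/D box snoRNA and is required for the first cleavages of the 18S precursor. Its 6 annotated loci held 7.02 to 13.7% of all counts in a library, while the other 93 loci together held 0.0243 to 0.0438%. Reads that match several U3 copies enter the U3 sum more than once, so it is not a share of distinct reads. How well RNAs of different length entered these libraries was not tested, so the shares do not compare amounts of mature RNA. SNORD3C had 855401 to 1731885 normalised counts with a median of 1286322, SNORD3B-2 539612 to 1107488 with 810952, and both SNORD3D entries had a median of 805234. SNORD3A had 295764 to 573052 with a median of 445172, and SNORD3B-1 55629 to 95459 with 80359. In each case the highest value was at 10 min and the lowest at 310 min, and every late library lay below every early one. The curve at 400 min was -0.42 ± 0.13 for SNORD3B-1 (edgeR adjusted p = 0.0065), which alone passed the threshold. It was -0.39 ± 0.15 for SNORD3C, -0.40 ± 0.15 for SNORD3B-2, -0.40 ± 0.16 for SNORD3D and -0.35 ± 0.14 for SNORD3A (adjusted p from 0.026 to 0.037). The SNORD3B-1 call was lost without the 0 min library (adjusted p = 0.17), without the 3 smallest libraries (0.016), with spike-in size factors (0.17), without the filter on low counts (0.015) and with every second time point (0.030). Reads of the near-identical U3 copies were counted at each place they matched, with correlations of 0.963 to 1 between loci over the 41 libraries, so the 6 are not independent and the division among them is uncertain. The SNORD3D entries are the same place. SNORD13, U13, ranged from 166 at 400 min to 339 at 230 min with a median of 245, and its change at 400 min was -0.24 ± 0.24 (adjusted p = 0.42).

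Outside U3 the loci had low counts. These are counts in the libraries and not amounts of mature snoRNA, since recovery of RNAs this short was not tested. The median of their means was 72.1 normalised counts, from 22.1 to 4064, and SNORD17 alone held 27.2% of the counts of the 93 and the 5 highest together 46.5%. More than 10 counts were present in every library for 73 of the 99, and the lowest single count was 1, so that the curves of the least abundant loci are the least precise. Per kilobase of annotated length the mean was 17147 normalised counts for SNORD17, 8514 for SNORD10, 7977 for SNORD58B and 6351 for SNORD49B. Compared per length with its host's exons, a locus was at a median of 0.11 of the host level in ribosomal protein genes, 0.52 in other protein-coding genes and 2.14 in lncRNAs, with a range from 0.041 to 38.1, the highest being SNORD17. A read pair counts when it touches a locus by 1 base, so a short locus also gathers pairs that reach beyond its ends. Dividing by annotated length therefore raises the values of short loci against those of longer genes, by an amount that was not tested. Annotated lengths ran from 64 to 237 bases with a median of 75, and length and mean count had a Spearman rho of 0.34 over the 93 loci. Of the 9 loci of at least 120 bases, a limit set after the values were seen, 3 were higher at 400 min, with a median change of 0.11, and of the 84 shorter ones 63 were, with a median of 1.07. Of all genes 24.2% were higher, and the difference between the sets was not tested.

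**Figure D5:**
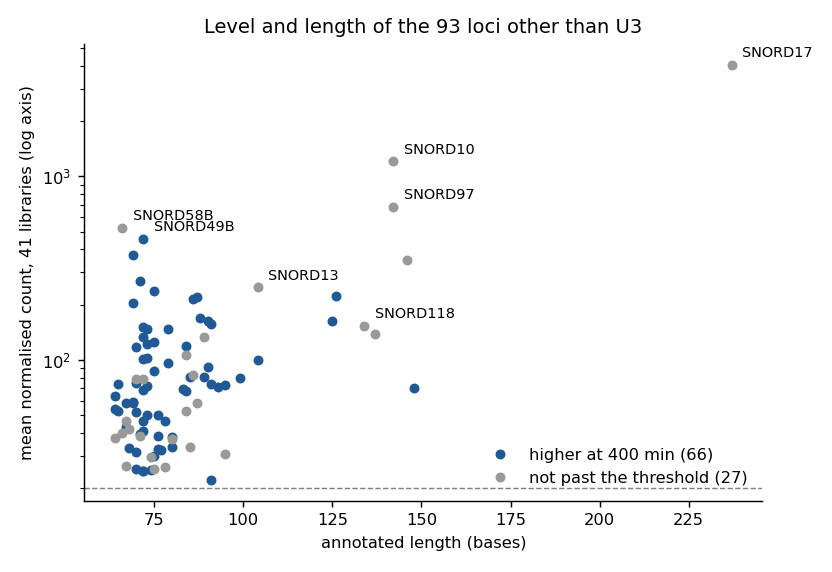
Mean normalised count (y, log axis) against annotated length in bases (x) for the 93 C/D box loci other than U3, in blue where higher at 400 min (66) and grey otherwise (27), with the limit of 20 dashed. SNORD17, SNORD10 and SNORD97 stand out as long, abundant and grey, and most of the short loci are blue.

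At the limit on the mean, SNORD88B (22.1), SNORD4B (24.7) and SNORD1A (24.9) were the members with the lowest means, and SNORD63 (19.7), SNORD93 (19.5) and SNORD37 (18.6) were just below. The imprinted C/D clusters, which are expressed mainly in brain and placenta, contributed no member. The highest mean was 1.49 among 9 SNORD113 genes, 2.98 among 30 SNORD114 genes, 0.0268 among 50 SNORD115 genes and 0.282 among 33 SNORD116 genes. The annotation used had no SNORD gene inside GAS5.

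Most genes of the C/D particle and its assembly rose over the same hours. All 4 core protein genes were higher at 400 min: NOP56 by 2.32 ± 0.08, NOP58 by 1.38 ± 0.21, SNU13 by 0.60 ± 0.08 and the methyltransferase FBL by 0.51 ± 0.11. Of 10 assembly factors 8 were higher and 1 lower, with a median of 0.75. The largest were the nucleolar chaperone NOLC1 (1.92 ± 0.07), ZNHIT6 (1.65 ± 0.13), which helps to build the particle, and NOPCHAP1 (1.49 ± 0.13). PIH1D1, of the R2TP chaperone complex, was lower (-0.39 ± 0.11, edgeR adjusted p = 0.0020), and RPAP3, of the same complex, was at 0.58 ± 0.31 (adjusted p = 0.11). All 5 genes listed for proteins of the U3 particle were higher, with a median of 1.07, from IMP3 at 0.44 to RRP9 at 2.24. Of 9 genes for snoRNA processing and decay 4 were higher and 0 lower, with a median of 0.26: TGS1, which modifies the caps of U3 and U8, by 0.81 ± 0.09, the exosome nuclease DIS3 by 0.77 ± 0.24, the debranching enzyme DBR1 by 0.37 ± 0.09 and the trimming nuclease XRN2 by 0.26 ± 0.06. The shares stand beside 24.2% of all genes, and no list was tested as a set.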

How the data were processed

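RNA of 41 libraries, 1 per time point, was extracted, depleted of ribosomal RNA and sequenced on both ends. Per their notes and methods the authors trimmed reads with cutadapt 1.11, mapped them to GRCh38 with STAR 2.5.2a (up to 20 places per read) and counted fragments with featureCounts over exons of GENCODE 29 and spike-in RNAs, by strand, with reads of several places or genes counted at each. The deposited counts are these raw counts, and the deposited normalised signal is the count divided by the authors' DESeq2 1.24.0 size factor. The 45 second entries of genes shared by X and Y were left out. Symbols, hosts and exons were taken from GENCODE 44, which matched 58207 genes (469 did not match), and sequences from GRCh38, with rRNA from RefSeq.

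Genes with more than 10 counts in 1 library and more than 2 in 3 consecutive ones were tested (21629). Counts were fitted with edgeR 4.0.16 (quasi-likelihood, robust) on a natural spline of time with 7 degrees of freedom and knots at 20, 40, 60, 100, 160 and 260 min, and the curve was compared with 0 min. Benjamini–Hochberg adjustment covered all genes tested, with a threshold of 0.01. The log2 ratio of a nested gene to its host (pseudocount 0.5, host of highest mean) was fitted with limma 3.58.1 over 2462 pairs. Autocorrelation was tested with Ljung–Box at lag 1. On simulated counts, 88% of genes with a log2 change of 1 at 400 min were recovered, and 97% with a change of 2. The changed genes were drawn from all tested genes with a mean of at least 20, and followed a steady ramp with a single fixed dispersion. Recovery at the levels and spread of the C/D box loci was not tested. For the ratio to a host simulated at a flat level the share was 58.3% at a size of 1, so a ratio not past the threshold may have been missed.

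Alternatives were TMM and spike-in size factors (66 spike-ins), no filter, 4 degrees of freedom, DESeq2 1.42.0, other pseudocounts and limits, and leaving out libraries. Windows without the 0 min library, and the count without U3, were added after the data were seen. The loci, lists and rules were chosen with earlier results of these data known. Named were the 6 loci of highest mean, the 8 largest rises and falls at 400 min, loci with genes of their own, the 4 largest differences from the host in each direction, loci of SNHG1 and GAS5, and those next to the limit. Other loci named (SNORD17, SNORD20, SNORD99 and the neighbours of named loci among them) and the antisense and length groupings were chosen after their values were seen. Some hosts and their loci are counted in the totals and not reported here by name.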

Additional observations from a re-analysis of the deposited data

How the results depend on the processing

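At 400 min 67 loci were past the threshold (66 higher, 1 lower). Over the other alternatives the count ran from 47 (limit of 50 on the mean, 67 loci) to 84 (4 degrees of freedom), and it was 79 in windows of 350 to 400 against 0 to 20 min and 82 against 10 to 30 min. Without the 0 min library it was 5, and over the 26 loci that touch no exon of another gene it was 15. Without the 0 min library the counts were 0 for 30 and for 60 min, 2 for 120 and for 240 min, 4 ratios to the host and 14 hosts. The starting point is then extrapolated. With 4 degrees of freedom they were 38, 39, 52 and 85 at 30, 60, 120 and 240 min, and 50 ratios, against 5, 5, 28, 51 and 30. With spike-in size factors they were 3, 3, 9 and 30 at those times and 14 hosts instead of 34. Spike-in scaling moved the median of all genes to -0.09 at 30 min and -0.22 at 60 min. Every second time point gave 2 at 30 min and 1 at 60 min, the limit of 50 gave 3 at 60 min, and loci without other exons gave 6 ratios of 21. The cause was not tested. SNORD118 at 400 min was -1.18 with 4 degrees of freedom and -1.39 against 10 to 30 min, where SNORD12C was 1.32. Without the 0 min library SNORD72 was -0.98, its ratio to the host -0.79 and that of SNORD12C 0.0045. Autocorrelation calls ran from 59 (of 67 loci) to 85. No paired analysis was possible because there is 1 library per time point. With 1 library per time point, the 0 min level rests on 1 library of 41, and loci with few counts have wide errors.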

Other observations

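H/ACA box snoRNA loci, which guide pseudouridylation and sit in the same kinds of host, are given beside the C/D loci without a test of the difference between the classes. Of 93 H/ACA loci with a mean of at least 20, 33 were higher at 400 min and 0 lower (edgeR, adjusted p below 0.01; 24.2% and 22.4% of all genes), with a median log2 change of 0.27 against 0.93 for the 99 C/D loci. Their means had a median of 102.9 normalised counts. The ratio to the host was higher for 7 and lower for 27 of 87, against 6.38% and 5.93% of all nested pairs. Neighbouring time points were correlated in 41 of 93, against 83 of 99 C/D loci and 60.9% of all genes. The genes listed for the H/ACA particle and its assembly were all higher: 6 of 6, from NOP10 at 0.50 to DKC1, the pseudouridine synthase, at 2.38, with GAR1 at 1.71.

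In 10 host genes both kinds lay within the annotated gene, with 16 C/D and 22 H/ACA entries. The 8 TAF1D loci among them lay outside that gene's canonical transcript, and SNORA16A in SNHG12 has 2 entries, which share an intron. There 11 of 16 and 15 of 22 were higher (24.2% of all genes), and the C/D median was above the H/ACA median in 7 of the 10 hosts. In TAF1D (1.20) the medians were 1.39 for 2 C/D and 0.91 for 6 H/ACA loci, and in EIF4A1 (1.57) SNORD10 was at 0.07 and the 2 H/ACA loci had a median of 0.19. In RPL5 (0.52) the order was the other way, with SNORD21 at 0.26 and SNORA66 at 0.96. Of 14 small Cajal body RNAs, the relatives that guide modification of spliceosomal RNAs, 1 was higher and 4 were lower at 400 min, where 24.2% and 22.4% of all genes were, with a median of -0.27.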
